A study of Mus musculus with 8 samples.

Results

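ER-associated degradation (ERAD) removes misfolded proteins from the endoplasmic reticulum, and 10 of its genes were examined here in mouse kidney mesangial cells (MMC), the contractile support cells of the glomerulus. The genes were taken by symbol from the 24639 gene entries of each count list. They are the EDEM family members Edem1, Edem2 and Edem3, the lectin gene Os9, the HRD1 ligase complex genes Sel1l, Syvn1 and Herpud1, and the derlin genes Derl1, Derl2 and Derl3. The question put to them was whether Edem3, which the study treats as a target of the microRNA miR-379, moved apart from its paralogs and from the rest of the machinery when miR-379 was deleted. The cells were untreated primary MMC grown from pooled glomeruli of C57BL/6J mice in RPMI medium with fetal bovine serum. WT MMC carried no deletion, and miR-379KO MMC came from mice in which CRISPR-Cas9 nickase had removed a short stretch at miR-379. The ages of the animals were not given in the sources used here. Each genotype was sequenced as total RNA and as RNA recovered with beads against AGO2 (AGO2-IP), the Argonaute protein that holds microRNAs and the RNAs they pair with. There were 2 replicates, A and B, in each of the 4 groups. The labels do not say that A and B came from separate animals, so that the p-values below measure only the spread between these samples, which may be technical.

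Glycoproteins that fail to fold in the endoplasmic reticulum are trimmed of mannose by EDEM proteins, recognised by lectins such as OS9, and passed to a membrane complex built around the ubiquitin ligase HRD1. Derlins help to move the substrate across the membrane, where the ATPase p97 extracts it for the proteasome. Several ERAD genes are induced by the unfolded protein response, through transcription factors that read ER stress elements in promoters.

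A sequence match of Edem3 to miR-379 is shown first, because it is a feature by which Edem3 differs from the other ERAD genes. The mature miR-379-5p lies at chr12:109709065-109709085 on the + strand (RefSeq, GRCm38.p6), and capitals mark bases 2 to 8, its seed. Windows of the 3′-UTRs follow in the sense of each transcript, with the match to the seed in capitals, from the longest annotated 3′-UTR of each gene.
miR-379-5p: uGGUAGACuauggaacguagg
Edem3: tgagtttagaaacatctgGTCTACCtca
Os9: cttagcacttaaccccacTCTACCcag
Sel1l: atattaccactcaccatcTCTACCttg
The Edem3 match to bases 2 to 8, GTCTACC, lay at chr1:151821022-151821028 on the + strand, at base 2309 of a 3′-UTR of 3615 bases. Os9 and Sel1l each held a match to bases 2 to 7, TCTACC, at chr10:127095966-127095971 and chr12:91806903-91806908 on the − strand. The other 7 genes held neither in that 3′-UTR. Of the 19184 entries with an annotated 3′-UTR, 4.05% held GTCTACC and 21.0% held TCTACC, and the median 3′-UTR was 825.5 bases. The 3′-UTRs of Edem1 and Sel1l, at 3800 and 3801 bases, were as long as that of Edem3 without holding GTCTACC. These matches are positions of letters and were not measured as sites.

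The promoters held another feature that some of the genes share. RefSeq promoter windows of 300 bases around the start site were found for 9 of the 10 genes, and they were searched on both strands for the ER stress element, which is CCAAT and CCACG with any 9 bases between them, and for its variant ERSE-II, which is ATTGG and CCACG with any 1 base between them. The motifs share the letters CCACG. The first was held by 0.119% of the 32851 promoters of the annotation and the second by 0.0365%. Windows around the 3 matches among the ERAD genes follow on the + strand, with the match in capitals. In Derl3 the match reads on the opposite strand.
Syvn1: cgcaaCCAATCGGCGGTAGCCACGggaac
Derl3: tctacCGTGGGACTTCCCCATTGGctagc
Herpud1: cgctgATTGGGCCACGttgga
They lay at chr19:6046527-6046555, chr10:75893237-75893265 and chr8:94386372-94386392 (GRCm38.p6). Edem1, Edem2, Edem3, Os9, Sel1l and Derl2 held neither motif in these windows, and no window was found for Derl1.

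The depth behind the ERAD genes differed more between the assays than between genotypes. Total RNA libraries held 17168230 to 22660743 gene counts. AGO2-IP libraries held 5587611 to 17095021, but the rRNA precursor Rn45s and the Lars2 entry took 80.0% to 89.0% of these, which left 1115782 to 1875037 counts on other genes. The share of uniquely placed reads counted to no gene was 48.1% ± 2.20 (SD, n = 2) in the WT and 74.9% ± 2.10 in the miR-379KO AGO2-IP libraries. Besides reads between genes, this class can hold intronic reads and reads on the uncounted strand. Whether the counted strand is the sense strand in AGO2-IP was not tested. AGO2-IP thus differed between the genotypes in library make-up as well as in genotype. The parts of these in the differences below cannot be told apart. Replicate counts differed beyond sampling noise in all 4 groups. The entry for the Mir379 precursor was at 0 in the 4 total RNA libraries and at 0, 4, 1 and 0 in WT A, WT B, miR-379KO A and miR-379KO B of AGO2-IP, too few counts to check the deletion. Of 8 mesangial markers, Acta2, Tagln, Des and Pdgfrb were abundant in total RNA, whereas Itga8 and Gata3 were at 7 to 70 counts, and Pdgfra and Thy1 at 6 or fewer. Of the podocyte markers, Nphs1 was at 4 counts or fewer, while Synpo, Wt1 and Podxl were detected, and these 4 genes had a summed level of 240 to 628 CPM, which are counts scaled to library size, in WT and 329 to 570 in miR-379KO. The summed level of 5 tubular markers, of which Slc34a1 and Umod were at 0, was 5.91 to 51.4 CPM in WT and 29.3 to 44.6 in miR-379KO, and 5 endothelial and 4 leukocyte markers summed to at most 4.16 CPM.

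In total RNA of WT MMC, 9 of the 10 ERAD genes were expressed and Derl3 was not measurable. Levels were compared between genes per kilobase of exon (RPKM on TMM-scaled counts). Derl1, a derlin of the retrotranslocation machinery, stood at 42.2 ± 13.0 RPKM (SD, n = 2) and Herpud1, a stress-induced HRD1 partner, at 40.6 ± 3.89. Sel1l, the adaptor of HRD1, followed at 24.8 ± 4.34 and Os9 at 24.3 ± 0.745. Edem3 came next at 12.1 ± 5.95, beside Syvn1, which encodes HRD1 itself, at 11.6 ± 0.519, Derl2 at 10.6 ± 1.41 and Edem1 at 9.78 ± 2.16. Edem2 was the lowest of the 9 at 7.47 ± 1.83. The libraries of Derl1 and Herpud1 overlapped, as did those of Sel1l and Os9 and those of Edem3, Edem1 and Edem2, so neighbours within these sets did not differ beyond their spread. Derl3 counted 0 and 1 in WT beside 2 and 2 in miR-379KO in total RNA and, in AGO2-IP, 5 and 0 in WT beside 2 and 7 in miR-379KO. At this depth, where 3 counts are the limit that a count of 0 allows, no difference in Derl3 between the genotypes was detectable. It did not pass the filter on low counts in the reported fits. In AGO2-IP, Herpud1, Sel1l, Derl1, Syvn1 and Os9 stood between 4.53 and 7.19 RPKM in WT, Edem3 at 3.49 ± 0.0354, and Edem1, Derl2 and Edem2 between 1.22 and 1.96.

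**Figure D1:**
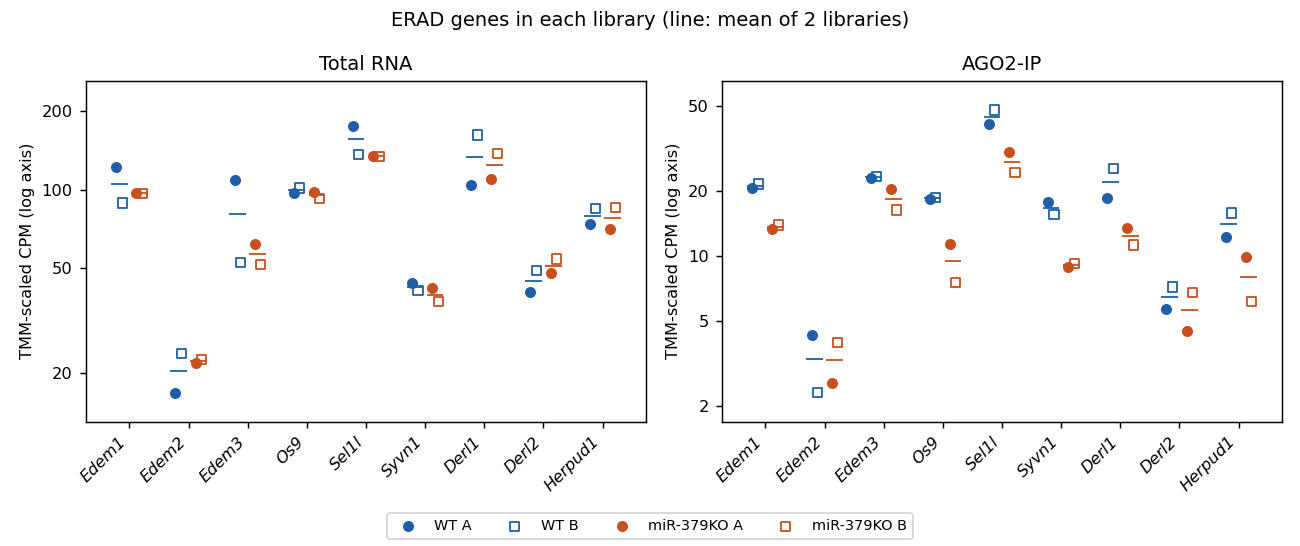
TMM-scaled CPM (log axis) of 9 ERAD genes in each total RNA library (left) and AGO2-IP library (right), with WT in blue, miR-379KO in orange, filled circles for replicate A, open squares for replicate B and lines at group means. Edem3 in WT total RNA spans 52.7 to 109 CPM, and in AGO2-IP the miR-379KO points of Edem1, Os9, Sel1l, Syvn1, Derl1, Herpud1 and Edem3 lie below the WT points.

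In total RNA, no ERAD gene passed the test between miR-379KO and WT MMC. Edem3, which encodes a mannosidase-like protein of the endoplasmic reticulum, counted 1826 and 962 in WT A and B, against 1423 and 883 in miR-379KO A and B, that is 109, 52.7, 61.9 and 51.9 CPM. WT A was the high library, WT B stood with both miR-379KO libraries, and the groups overlapped. The log2 fold change of Edem3 was −0.51 ± 0.36 (SE, n = 2 per group), with an edgeR adjusted p of 0.9997. WT A and B differed 2.07-fold, more than the genotypes did, and the log2 fold change was 0.12 without WT A and −0.94 without WT B. The summed podocyte markers were also high in WT A, at 628 CPM against 240 in WT B, 570 in miR-379KO A and 329 in miR-379KO B, and their part in the Edem3 difference was not tested. In its paralogs the spread was smaller, at 1.37-fold between the WT libraries for Edem1 and 1.42-fold for Edem2. Edem1 was at 122 and 88.9 CPM in WT, against 97.4 and 96.7 in miR-379KO, and Edem2 at 16.7 and 23.7 in WT, against 21.7 and 22.5 in miR-379KO. In both, the miR-379KO libraries lay between the WT libraries.

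The tested lectin, HRD1 complex and derlin genes had smaller log2 fold changes than Edem3 in total RNA. Os9 was at 97.1 and 101 CPM in WT, against 97.6 and 92.6 in miR-379KO. Sel1l was at 175 and 137 CPM in WT, against 135 and 134 in miR-379KO, without overlap. Derl1 was at 104 and 162 CPM in WT, against 110 and 138 in miR-379KO, which lay between the WT libraries. Log2 fold changes of the 9 tested genes ran from −0.51 for Edem3 to 0.19 for Derl2, with a median of −0.10, and 7 were negative. No gene passed at an adjusted p under 0.05 in edgeR or in DESeq2, and none of the 9 passed at an unadjusted p under 0.05. The background was the same, since 0 of 12321 tested genes (0.0%) were called and 91 (0.739%) had an unadjusted p under 0.05. In total RNA as in AGO2-IP, fewer cells of a type and less RNA per cell cannot be told apart.

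In AGO2-IP, 6 of the 9 tested ERAD genes were lower in miR-379KO than in WT MMC and none was higher. They were the lectin gene Os9, the HRD1 complex genes Syvn1, Sel1l and Herpud1, the derlin gene Derl1 and Edem1, and they fell 1.55- to 1.95-fold. Edem3, Edem2 and Derl2 did not pass. In AGO2-IP 9.52% of 13505 tested genes were called lower and 21.4% higher, 30.9% in all. Among the 3651 genes with a mean over 1000 counts in total RNA, 26.4% were called lower and the median log2 fold change was −0.45. The median of the 9 ERAD genes was −0.70, against −0.01 for all tested genes, and 6 of the 9 have such a mean. Summed marker genes differed in the same AGO2-IP libraries. The 8 mesangial markers summed to 890 and 1152 CPM in WT A and B, and to 733 and 449 in miR-379KO A and B. The 5 tubular markers summed to 5.69 and 7.63 CPM in WT beside 14.8 and 19.9 in miR-379KO. The 4 leukocyte markers summed to 3.63 and 3.35 CPM in WT beside 8.45 and 12.1 in miR-379KO, and the 5 endothelial markers to 4.12 and 2.31 beside 6.69 and 8.18. None of these 4 sums overlapped between the genotypes. The summed podocyte markers did overlap, at 70.3 and 24.3 CPM in WT beside 56.8 and 29.6 in miR-379KO. Among single tested genes, 32.2% had both miR-379KO libraries below both WT libraries, and 21.4% were called higher. The largest mesangial counts in AGO2-IP were those of Acta2 and Tagln, at 2184 to 5722 and 962 to 2773. In total RNA the endothelial and leukocyte markers summed to at most 4.16 CPM. Of the tubular markers, Slc34a1 and Umod were at 0 in total RNA but at 1 to 8 and 2 to 10 counts in AGO2-IP. Lrp2, Aqp1 and Cdh16 had counts in every total RNA library. The part of these sums in the ERAD differences was not tested.

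**Figure D2:**
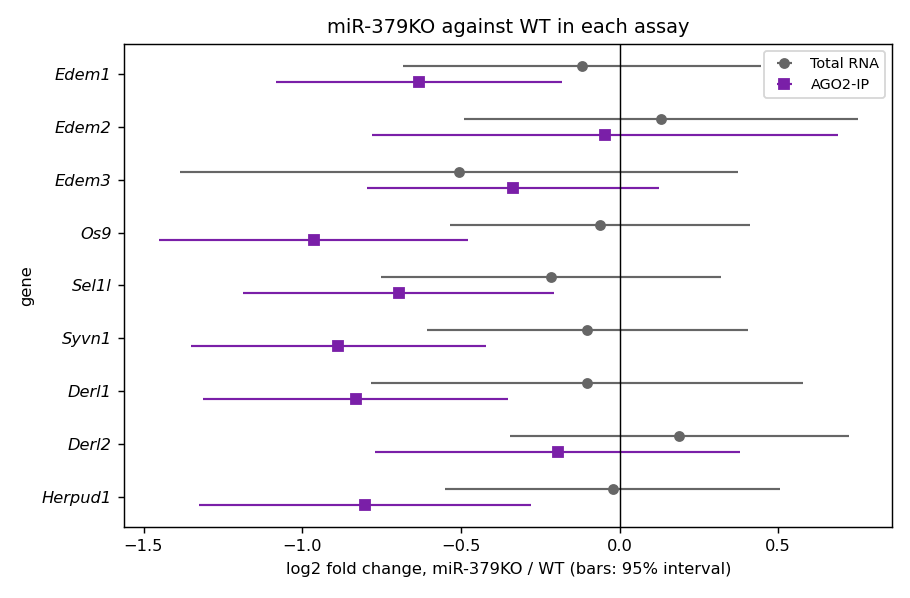
Log2 fold change of miR-379KO over WT (horizontal axis) for 9 ERAD genes in total RNA (grey circles) and AGO2-IP (purple squares), with 95% intervals from edgeR. All total RNA intervals cross 0, whereas the AGO2-IP intervals of Edem1, Os9, Sel1l, Syvn1, Derl1 and Herpud1 lie below 0 and that of Edem3 runs from −0.80 to 0.13.

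Os9 showed the largest change of these genes. It stood at 18.4 and 18.6 CPM in WT A and B and at 11.4 and 7.54 in miR-379KO A and B, with no overlap, and its log2 fold change was −0.96 ± 0.24 (edgeR adjusted p = 0.00432). Syvn1 stood at 17.8 and 15.6 CPM in WT, against 8.92 and 9.20 in miR-379KO, a log2 fold change of −0.89 ± 0.23 (edgeR adjusted p = 0.00557). For Syvn1 the 2 libraries of each genotype lay close together, without overlap between the genotypes. Its partner Sel1l was at 41.1 and 47.6 CPM in WT against 30.3 and 24.4 in miR-379KO, a fall of 0.70 on the log2 scale with an SE of 0.24 (edgeR adjusted p = 0.0289).

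Herpud1, which recruits substrates to HRD1, was at 12.3 and 15.8 CPM in WT, against 9.86 and 6.13 in miR-379KO, and changed by −0.80 ± 0.25 (edgeR adjusted p = 0.0194). Derl1 was at 18.6 and 25.6 CPM in WT, against 13.5 and 11.2 in miR-379KO, and changed by −0.83 ± 0.23 (edgeR adjusted p = 0.0101). In each of the 2 genes the lower WT library stood above the higher miR-379KO library. Derl2, a related derlin, had overlapping groups, at 5.69 and 7.17 CPM in WT, against 4.46 and 6.77 in miR-379KO, with a log2 fold change of −0.19 ± 0.28.

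Within the EDEM family, Edem1 changed most. It counted 211 and 187 in WT, against 114 and 109 in miR-379KO, or 20.7 and 21.6 against 13.4 and 13.9 CPM, a log2 fold change of −0.63 ± 0.22 (edgeR adjusted p = 0.0311). Edem3 counted 236 and 203 in WT, against 175 and 128 in miR-379KO, or 23.1 and 23.5 against 20.5 and 16.4 CPM. Its groups did not overlap, yet the log2 fold change of −0.34 ± 0.22 did not pass (edgeR adjusted p = 0.258). By RT-qPCR of AGO2-IP RNA, the study reported a significant decrease of Edem3 in miR-379KO MMC. It ranked AGO2-IP sequencing by reads at predicted sites relative to the rest of the 3′-UTR, in a list that does not show Edem3. By immunofluorescence it reported more EDEM3 protein in miR-379KO than in WT MMC kept in normal glucose. None of these measures is the whole-gene count used here. Edem2 counted only 44 and 20 in WT, against 22 and 31 in miR-379KO, so that a change of −0.05 ± 0.36 had an interval from −0.78 to 0.69. Over the 10 genes, 7 had both miR-379KO libraries below both WT libraries, where 32.2% of tested genes did.

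The calls in AGO2-IP moved with several settings. Without miR-379KO B none of the 9 passed, and without WT B Os9 and Syvn1 passed. With DESeq2 none passed, although the median of the 9 was −0.73. A minimum mean of 50 counts left 8 genes tested, of which 0 passed and Edem3 stood at 0.031, with the median of all genes moved by 0.37. In a fit of all 8 libraries Os9 and Syvn1 passed. With an offset fitted to exon GC content and length, Edem3 passed with a log2 fold change of −0.88 ± 0.23 (edgeR adjusted p = 0.00774), Syvn1 and Herpud1 no longer passed, and 5 genes were called. The exons of Edem3 held 43.0% GC, the least of the 10 genes, and those of Syvn1 57.9%, the most, and across the 9 tested genes GC content and log2 fold change had a Pearson r of −0.55, as a description over genes counted in the same libraries.

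**Figure D3:**
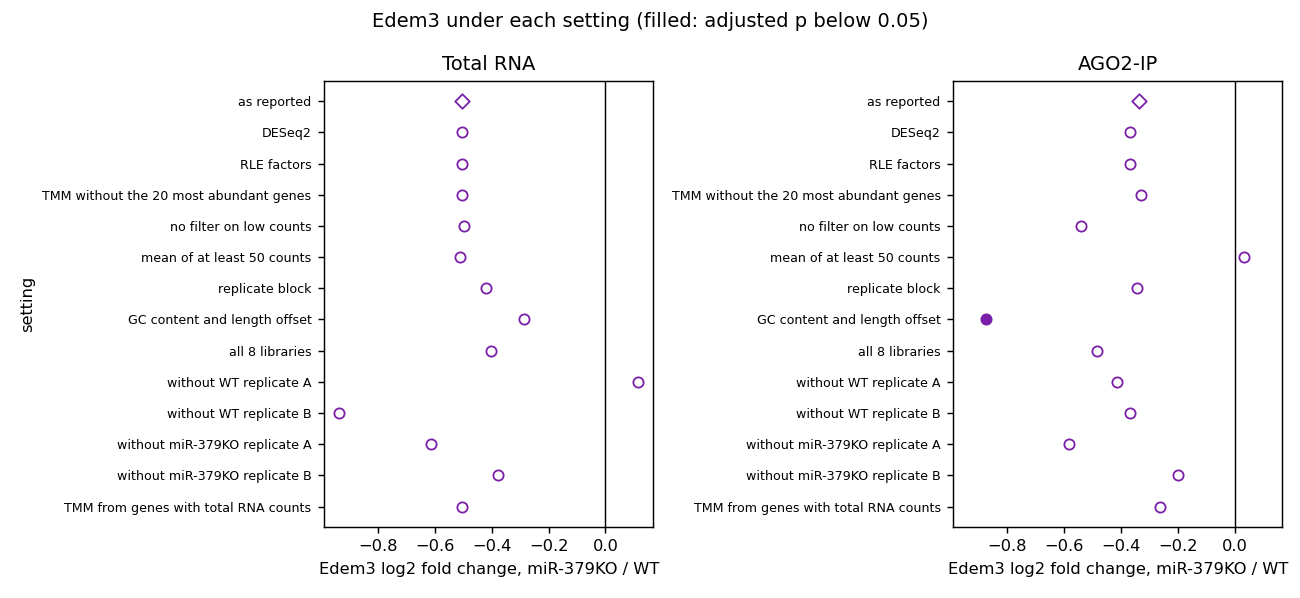
Edem3 log2 fold change of miR-379KO over WT in total RNA (left) and AGO2-IP (right) under each setting of the analysis, with filled points at an adjusted p below 0.05 and a diamond for the reported value. In AGO2-IP the offset for GC content and length alone gives a filled point, at −0.88, and in total RNA the value runs from −0.94 without WT replicate B to 0.12 without WT replicate A.

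Edem3 was next set against its paralogs within each library, which removes the scaling between libraries. Edem3 reads per read of Edem1 and Edem2 together were 0.786 and 0.468 in WT A and B, against 0.520 and 0.435 in miR-379KO A and B of total RNA. The log2 ratio differed by −0.35 between the genotypes (two-sided exact permutation p = 0.667, n = 2 per group), and WT A stood apart from the other 3 libraries. In AGO2-IP the same ratio was 0.925 and 0.981 in WT, against 1.29 and 0.914 in miR-379KO, a difference of 0.19 in the log2 ratio (exact permutation p = 1.0). With 2 libraries a group, no difference can reach a p below 0.333.

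Against the other 9 ERAD genes together, Edem3 took a larger part of the counts in miR-379KO AGO2-IP. Edem3 was 14.2% and 13.2% of the 10 genes' AGO2-IP counts in WT, against 17.8% and 16.3% in miR-379KO, so the genotypes did not overlap. The log2 ratio of Edem3 to the other 9 differed by 0.37, at the smallest p that the design allows (two-sided exact permutation p = 0.333). In total RNA the share was 13.9% and 7.11% in WT, against 9.05% and 7.27% in miR-379KO, and the difference in log2 ratio was −0.33 with overlapping groups (exact permutation p = 1.0). These shares are not adjusted for base composition. With the GC content and length offset, Edem3 changed by −0.88 in AGO2-IP against a median of −0.71 for the 9 tested genes, so that it did not fall less than that median. Sums of the 10 genes were 786 to 1658 counts in AGO2-IP and 12138 to 15726 in total RNA.

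**Figure D4:**
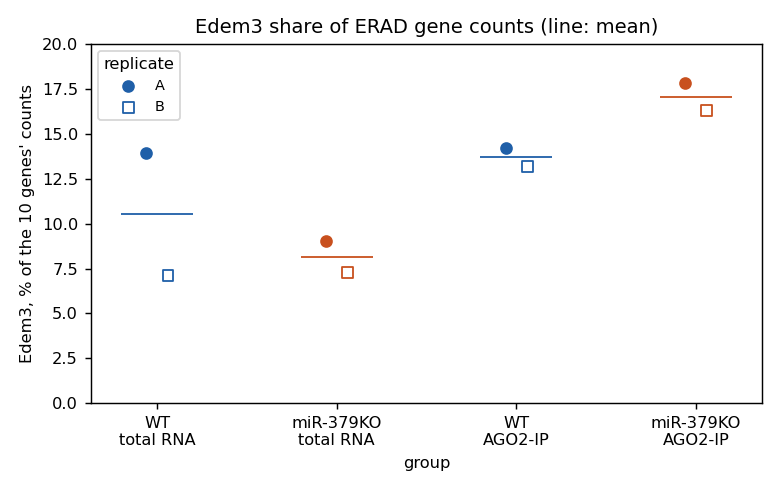
Edem3 as a percentage of the counts of the 10 ERAD genes in each library, by group, with a filled circle for replicate A, an open square for replicate B and a line at the mean. The miR-379KO AGO2-IP libraries are the highest at 17.8% and 16.3%, and WT total RNA is split at 13.9% and 7.11%.

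An interaction fitted to the 8 libraries asked whether AGO2-IP moved further between genotypes than total RNA did. All 9 ERAD genes had a negative value, meaning a lower miR-379KO to WT ratio in AGO2-IP than in total RNA, and none passed. The values were −1.11 ± 0.36 for Os9, −1.0 ± 0.33 for Syvn1, −0.98 ± 0.39 for Herpud1 and −0.92 ± 0.42 for Derl1 on the log2 scale. Edem3 was the nearest to 0 at −0.08 ± 0.39, with an interval from −0.91 to 0.75. With the GC content and length offset it was −0.84 ± 0.35 and also did not pass (edgeR adjusted p = 0.139), while Edem2 at −0.61 and Syvn1 at −0.83 lay nearer to 0 and Edem1 passed. In edgeR 0 of 17429 genes (0.0%) passed at an adjusted p under 0.05 and 2733 (15.7%) had an unadjusted p under 0.05, among them 5 of the 9 ERAD genes: Os9, Derl1, Syvn1, Edem1 and Herpud1. DESeq2 called 114 genes and none of the 9. A fit that blocked on culture, taking total RNA and AGO2-IP of one genotype and letter as linked, called 1108 genes and 3 of the 9, Herpud1, Os9 and Syvn1, with Edem3 at −0.14 ± 0.32. The labels give these libraries the same letter but do not state that they came from one culture. The median of the 9 was −0.74, and the median of the genes with a mean over 1000 counts in total RNA was −0.68. The sign for Edem3 turned with the scaling, since RLE factors moved the median of all genes by 0.26 and gave Edem3 0.21.

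AGO2-IP was then compared with total RNA inside each genotype, with a call set at an adjusted p under 0.05 and at least a 2-fold difference. In WT MMC, Syvn1 was the only ERAD gene of the 9 called, at 1.15 ± 0.23 on the log2 scale (edgeR adjusted p = 0.00062), where 35.7% of 17429 tested genes were called higher and 7.33% lower. Edem3 at 0.73 ± 0.28 and Sel1l at 0.69 ± 0.25 passed the adjusted p (edgeR, 0.0358 and 0.0273) without reaching 2-fold. The other 6 lay between −0.33 for Derl2 and 0.19 for Edem1. Syvn1 missed 2-fold on omission of any of the 4 AGO2-IP libraries, at 0.82 to 0.93. With the GC content and length offset it was 0.59 and not called, and Derl2 was called lower at −1.41.

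In miR-379KO MMC, Os9, Derl1 and Herpud1 were called lower in AGO2-IP than in total RNA, at −1.05 ± 0.26, −1.04 ± 0.30 and −1.0 ± 0.28 (edgeR adjusted p = 0.00164, 0.00521 and 0.00425), where 19.3% of tested genes were called lower and 41.6% higher. Among the 3653 genes with a mean over 1000 counts in total RNA, 53.8% were called lower in miR-379KO and 21.7% in WT. Edem3 was the only one of the 9 above 0 with an adjusted p under 0.05, at 0.65 ± 0.28 (edgeR, 0.0476). Its own value in the 2 genotypes was therefore close, 0.73 and 0.65. For Os9, Derl1, Herpud1, Syvn1, Edem1 and Sel1l the difference between genotypes, which is the interaction, ran from −1.11 to −0.71. It was −0.59 for Derl2 and −0.36 for Edem2. No interaction passed, and that of Edem3 had an interval from −0.91 to 0.75. The 3 called genes were 2.0- to 2.07-fold lower, close to the limit, and none was called with RLE factors or DESeq2. With the GC content and length offset, Edem3 became −0.63 in WT and −1.47 in miR-379KO, where that offset moved the median of all genes by −0.74 and −1.04.

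**Figure D5:**
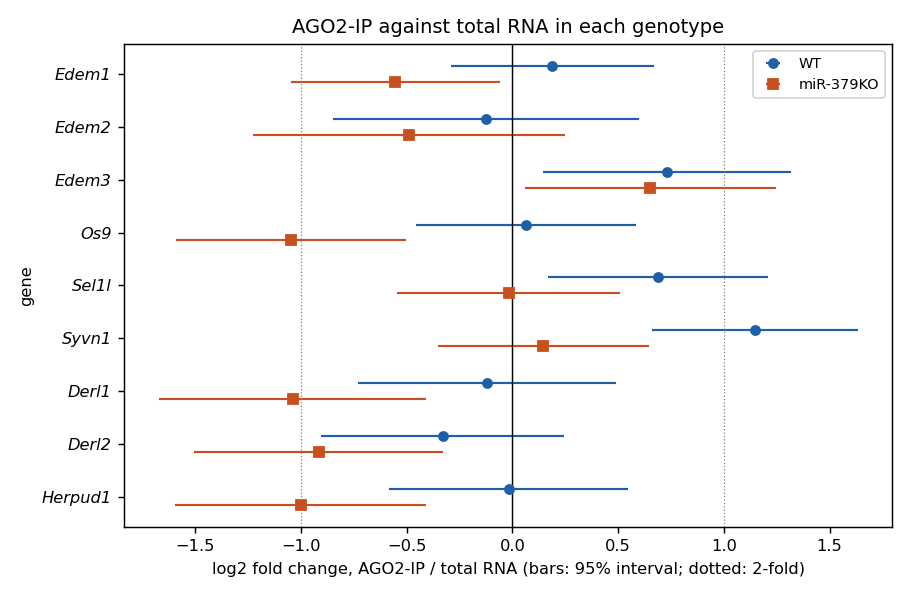
Log2 fold change of AGO2-IP over total RNA (horizontal axis) for 9 ERAD genes in WT (blue circles) and miR-379KO (orange squares), with 95% intervals and dotted lines at 2-fold. Edem3 has nearly the same value in both genotypes, 0.73 and 0.65, and Os9, Derl1 and Herpud1 lie near −1 in miR-379KO.

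A wider list of 39 ERAD genes stood near the genes abundant in total RNA in AGO2-IP, and above all tested genes in the share called lower. In total RNA none of the 39 passed in edgeR or DESeq2, and the median log2 fold change was 0.07. In AGO2-IP 8 of 38 tested (21.1%) were lower in miR-379KO and none higher, with a median of −0.48. Among genes with a mean over 1000 counts in total RNA 26.4% were lower, with a median of −0.45. Over all tested genes 9.52% were lower, with a median of −0.01. Some of the 38, such as Rnf5, have a mean below 1000 counts in total RNA. Of the 38, 2 passed with DESeq2 and none without miR-379KO B. By role, the 8 were 4 of 20 genes of p97 extraction and delivery, 3 of 7 other ER ligases and 1 of 5 tested HRD1 partners, and 0 of 6 lumenal genes passed. The largest changes among the 8 were in Rnf5, a membrane-anchored ubiquitin ligase, at −1.45 ± 0.41, in Aup1, which docks a ubiquitin-conjugating enzyme at the complex, at −1.02 ± 0.25, and in Bag6, a chaperone that holds extracted substrates, at −0.85 ± 0.23 (edgeR adjusted p = 0.011, 0.00505 and 0.00855). Rnf5 rested on 33 and 27 counts in WT, against 13 and 6 in miR-379KO. Bag6 rested on 368 and 294 counts in WT, against 186 and 133 in miR-379KO.

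Against total RNA, 5 of the 39 genes were called lower and 1 higher in WT AGO2-IP, and 21 lower and 1 higher in miR-379KO AGO2-IP. The shares called lower were 12.8% and 53.8%, and among genes with a mean over 1000 counts in total RNA they were 21.7% and 53.8%. Over all tested genes they were 7.33% and 19.3%. Ube2j1 and Ube2g2, the ubiquitin-conjugating enzymes of HRD1, and Ubxn6, a p97 cofactor, were lowest in WT, at −1.40 ± 0.24, −1.37 ± 0.27 and −1.25 ± 0.30. Stub1, Rnf5 and Ube2g2 were lowest in miR-379KO, at −2.12 ± 0.32, −2.05 ± 0.37 and −2.04 ± 0.28. Yod1, a deubiquitinase that acts with p97, was the gene called higher in both, at 1.45 ± 0.37 in WT and 2.11 ± 0.36 in miR-379KO.

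Genes that varied most like Edem3 over the 8 libraries were not ERAD genes. Among 4855 genes averaging 50 counts or more in each assay, the closest by Pearson r of log2 CPM were the nuclear receptor gene Nr2c2 (0.996), the Wnt co-receptor gene Lrp6 (0.988) and the zinc transporter gene Slc30a7 (0.985). Among the ERAD genes, Sel1l and Syvn1 had 0.77 and 0.75, Edem1 0.23, Os9 −0.07, Herpud1 −0.18, Derl1 −0.33 and Derl2 −0.72. These values are a description over 8 libraries that share 2 assays and their depths.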

How the data were processed

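Total RNA and AGO2-IP RNA from WT and miR-379KO MMC were sequenced in 2 replicates of each, and the values used were the gene counts deposited by the authors, in whole reads without normalization. The authors made total RNA libraries with a stranded mRNA kit and AGO2-IP libraries by adapter ligation from UV cross-linked, sonicated lysates without size selection. They aligned reads to mm10 with TopHat and Bowtie2 2.1.0.1 and counted RefSeq genes with HTSeq 0.6.0 in reverse-stranded mode. Whether this mode counts the sense strand of the adapter-ligated AGO2-IP libraries was not tested. If it does not, the AGO2-IP counts of every gene, and the comparisons that use them, would be affected. Reads of Edem1, Syvn1 and Derl2 may also not be kept apart from their antisense neighbours in those libraries. The high share of rRNA in AGO2-IP leaves fewer counts on each gene.

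Of the 24639 entries, 99.3% were matched by symbol or synonym to RefSeq on GRCm38.p6, which gave 1-based coordinates, exon length, GC content, 3′-UTRs and promoters. Differential expression was tested with edgeR 4.0.16 in R 4.3.3 (TMM factors, filterByExpr with a minimum count of 10, quasi-likelihood F test, Benjamini-Hochberg adjustment over all tested genes) on the 4 libraries of an assay, or on all 8 for the interaction and for AGO2-IP against total RNA, which also required a 2-fold difference. CPM are TMM-scaled within an assay. Log2 ratios of Edem3 to its paralogs were compared by exact permutation over samples. The scripts were tested on simulated data. The letters A and B are shared by all groups. Across genes, the deviations of same-letter samples from their group means had a correlation of 0.01 between genotypes in total RNA and 0.04 in AGO2-IP. Between the assays it was 0.23 in WT and 0.20 in miR-379KO, and across both it was 0.18 and −0.037. With 2 letters a group and no statement of a shared culture, the letters were not taken to pair samples in the reported fits.

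All 10 members were named, with up to 3 genes per direction and comparison from the wider ERAD and unfolded protein response lists, the 3 genes most correlated with Edem3, and library checks. The members and lists were chosen with earlier results of these data known. Alternatives were DESeq2 1.42.0, RLE factors, TMM without the 20 most abundant genes, no filter, a minimum mean of 50 counts, a replicate block, an offset for GC content and length, all 8 libraries, and omission of each replicate. TMM from genes with total RNA counts and a block for each culture (genotype and letter) were added after the data were seen. A marker gene from the lists is not reported here.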

Additional observations from a re-analysis of the deposited data

Results flagged for a closer look

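The share of uniquely placed reads counted to no gene, which no comparison above uses, was 74.9% ± 2.10 (SD, n = 2) in miR-379KO AGO2-IP. It was 48.1% ± 2.20 in WT AGO2-IP. This class can hold intronic reads and reads on the uncounted strand as well as reads between genes. In total RNA the share was 7.61% ± 1.69 in WT and 6.73% ± 0.0708 in miR-379KO. This share was looked at again because it is a signal outside the gene counts that stands above the control group. Its part in the lower AGO2-IP values of the ERAD genes was not tested.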

How the results depend on the processing

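The absence of calls in total RNA held under every alternative run, whereas the AGO2-IP calls did not, and apart from the construction of each alternative (fewer genes tested, fewer samples) the cause was not tested. All log2 values here are fold changes unless said otherwise. In AGO2-IP, 802 genes and 0 ERAD genes were called with DESeq2, 686 and 2 with all 8 libraries, and 274 and 0 with a minimum mean of 50 counts, which moved the median of all genes by 0.37. Omission of each replicate gave 918 to 3337 genes and 0 (without miR-379KO B) to 6 ERAD genes. Edem3 was −0.88, and called, with the GC content and length offset and 0.031 with the minimum mean. Derl2 was 0.18 with the minimum mean and −0.54 to 0.0077 on omission, and Edem2 was 0.0092 with the offset, 0.028 with TMM from genes with total RNA counts and −0.45 to 0.42 on omission. The replicate block gave −0.34 for Edem3, and Sel1l was the gene it lost. In total RNA the block gave −0.42 for Edem3 and 0 ERAD genes.

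In total RNA, omission gave −0.94 to 0.12 for Edem3, −0.33 to 0.13 for Edem1, −0.10 to 0.41 for Edem2, −0.38 to 0.25 for Derl1 and −0.16 to 0.13 for Herpud1. Edem1 was 0.068 with the offset, and with all 8 libraries Herpud1 was 0.032 and Os9 0.00075. For the interaction, DESeq2 called 114 genes, the offset 1081 and 1 ERAD gene (Edem1), the minimum mean 2 genes, the replicate block 8 genes and no ERAD gene, and the block for each culture 1108 and 3 ERAD genes (Herpud1, Os9 and Syvn1). Omission gave 0 to 1547 genes and 0 to 4 ERAD genes, the highest without WT total RNA B. Edem3 was 0.21 with DESeq2, 0.21 with RLE factors, 0.036 with TMM from genes with total RNA counts, 0.35 with the minimum mean, −0.84 with the offset and −0.58 to 0.35 on omission. Edem2 was 0.034 with the minimum mean and −0.80 to 0.36 on omission. The log2 ratio of Edem3 to Edem2 alone differed by −0.36 in AGO2-IP.

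For WT AGO2-IP against total RNA, the minimum mean called 1829 genes and no filter called 2 ERAD genes, Derl3 among them. Omission called 0 to 3 ERAD genes and gave 0.35 to 1.17 for Edem3, −0.66 to 0.34 for Derl1, −0.17 to 0.28 for Edem1, −0.87 to 0.25 for Edem2, −0.52 to 0.17 for Herpud1 and −0.25 to 0.18 for Os9. With the offset, Edem3 was −0.63, Edem1 −1.0, Os9 −0.47 and Sel1l −0.13. With the minimum mean, Derl1 was 0.014, Edem2 0.0103 and Herpud1 0.11. Os9 was −0.0082 with DESeq2, −0.0081 with RLE factors and −0.062 with TMM from genes with total RNA counts. For miR-379KO AGO2-IP against total RNA, 3380 genes and 1 ERAD gene (Edem3, at 1.18) were called with the minimum mean. No filter gave 16163 genes and 5 ERAD genes, 4 of them lower and 1, Derl3, higher on 2 and 7 AGO2-IP counts. With DESeq2 and with RLE factors 0 ERAD genes were called, and with the offset 8. Edem3 was −1.47 and Syvn1 −0.24 with the offset, and Edem2 was 0.044 with the minimum mean. Sel1l was 0.17 with DESeq2, 0.17 with RLE factors, 0.50 with the minimum mean and −0.19 to 0.14 on omission, and Syvn1 −0.026 to 0.21. Depth limits Edem2 and Derl2 in AGO2-IP, at 20 to 62 counts a library, and Derl3 throughout. Between genotypes within an assay, deviations of same-letter samples had correlations of 0.01 and 0.04, and with 2 letters a group these cannot settle pairing. Why a call was lost there under the replicate block was not tested. Between assays pairing by culture was not settled.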

Other observations

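Genes of the unfolded protein response, which senses misfolded protein in the endoplasmic reticulum and induces much of the ERAD machinery, were lower in miR-379KO AGO2-IP. Of 11 tested genes of a list of 12, 8 were called lower than in WT and none higher, with a median log2 fold change of −0.75, where 9.52% of all tested genes, and 26.4% of those with a mean over 1000 counts in total RNA, were called lower. Ddit3, the stress-induced transcription factor CHOP, changed by −1.13 ± 0.30, from 58 and 58 counts in WT A and B to 28 and 18 in miR-379KO A and B. Calr, the calcium-binding chaperone calreticulin, changed by −0.91 ± 0.27 and Pdia4, a disulfide isomerase, by −0.83 ± 0.23 (edgeR adjusted p = 0.00782, 0.0146 and 0.00988). Xbp1, whose product induces ERAD genes, and Hspa5, the chaperone BiP, were also among the 8, at −0.75 and −0.73, and were named here after their values were seen. In total RNA none of the 12 passed in edgeR, and the median was 0.02. With DESeq2 3 of the 11 passed in AGO2-IP, without WT B 1 did, and without miR-379KO B none did.

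Against total RNA, 8 of the 12 genes were called lower in miR-379KO AGO2-IP and none in WT AGO2-IP. The shares over all tested genes were 19.3% and 7.33%, and over genes with a mean over 1000 counts in total RNA 53.8% and 21.7%, so that the genotypes differed in the same direction in general. The medians of the 12 were −1.30 and −0.43, beside −1.09 and −0.45 for those abundant genes. Atf3, a stress-induced factor, was lowest at −3.17 ± 1.0, on 2 and 6 counts in AGO2-IP, followed by Calr at −1.92 ± 0.32 and Atf4 at −1.82 ± 0.30. None of the 12 passed for the interaction in edgeR.

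The study named 7 other candidate targets, which it chose on these samples in part. In AGO2-IP 2 of these 7 (28.6%) were called lower in miR-379KO. Their log2 fold changes had −0.45 as the median, beside −0.34 for Edem3. Genes with a mean over 1000 counts in total RNA were close to this, with 26.4% called lower and −0.45 as their median. Over all tested genes 9.52% were called lower, and the median was −0.01. In total RNA the median of the 7 candidates was 0.16 and none passed. These are whole-gene counts, not the reads at predicted sites that the study ranked. The study's 4 negative controls had medians of 0.17 in AGO2-IP and −0.003 in total RNA, and none passed. The study picked them for showing no significant genotype difference in its AGO2-IP sequencing. Their lack of calls in AGO2-IP is therefore no independent check.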
